A study of Rattus norvegicus with 27 samples.

Results

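The interferon-stimulated genes described here are 9 genes of the rat, namely Irf7, Irf9, Stat2, Ifit2, Ifit3, Mx1, Mx2, Oas1a and Isg15, measured in the mPFC, the medial prefrontal cortex, of 27 adult male Wistar rats. They were taken from the count table by symbol, from a set drawn up with earlier results of these data known, and all 9 were found among its 36865 rows, 1 row each. RNA sequencing gave 1 library per rat, and the rats were group-housed animals of 1 outbred stock that had been taken repeatedly through 3 tests of anxiety, an elevated plus-maze, a light-dark box and an open field. The methods add a week of these tests under stronger light and, as the last test, a different open field. The 27 rats were alternate animals of a ranking by a composite anxiety score. The rats were killed straight from the home cage, 2 weeks after the last test, so the libraries form 1 group in a resting state with no untreated control. The methods of the study describe 2 cohorts of these rats, and the labels do not assign the libraries to them. The labels list learned helplessness as the treatment, whereas the methods of the study describe the test battery, and no rat was given interferon or a virus according to either. The question addressed is therefore how high these genes stood in resting cortex, how far they varied from rat to rat beyond counting noise, and whether they varied together. How anxious each rat was did not enter the values given here.

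Interferons are secreted proteins that warn tissues of viral infection. Type I interferon binds the receptor made of Ifnar1 and Ifnar2, the kinases Jak1 and Tyk2 then act on Stat2, which joins Irf9 in a complex called ISGF3. This complex binds the interferon-stimulated response element, a short sequence before the start of many antiviral genes, and Irf7, itself induced by interferon, drives further interferon production. The induced effectors include RNA-binding proteins (Ifit2, Ifit3), dynamin-like GTPases that block viral particles (Mx1, Mx2), a synthetase of the second messenger that activates RNase L (Oas1a), and a ubiquitin-like protein that is attached to other proteins (Isg15). In brain, neurons, glia and vessel cells can all respond to interferon, and microglia and endothelium keep a low level of these transcripts at rest.

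Promoter sequence was available from RefSeq (assembly GRCr8, 250 bases before to 50 after the start of the gene) for 6 of the 9 genes, Irf7, Irf9, Stat2, Ifit3, Mx1 and Oas1a. Ifit2, Mx2 and Isg15 had no entry. The core of the interferon-stimulated response element, here the letters GAAA followed after any 2 bases by a further GAAA, on either strand, was present in 3 of the 6 windows, against 1312 of 33469 RefSeq promoters of the same length (3.92%). The 3 stretches are shown because they carry the sequence for which the gene family is known, each written 5′ to 3′ on the strand of its gene with the bases of the core in capitals.
Irf7, minus strand, chr1:205800073-205800102, from 79 to 50 bases before the start: acagtttaggTTTCATTTTCccgagacgca
Ifit3, plus strand, chr1:241527272-241527301, from 54 to 25 bases before the start: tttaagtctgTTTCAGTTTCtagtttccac
Oas1a, plus strand, chr12:41330418-41330447, from 48 to 19 bases before the start: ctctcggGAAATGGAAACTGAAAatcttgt
In Irf7 and Ifit3 the core lies on the opposite strand, so that TTTC is read, and in Oas1a a pair of matches overlap. The stretch of Irf7 lies inside the span that the RefSeq gene list gives for this gene. A second motif, TTCNNNGAA, known as the gamma-activated site, reads the same on both strands and was found in the windows of Irf9 and Oas1a, 2 of 6 against 8.87% of all promoters. A match describes the letters of a window and not a site in use in these rats.

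Between 4907255 and 12771309 reads per library were counted on genes, and these totals followed the number in the library title. A set of 16 libraries, with numbers up to 31, had at most 8568317 reads and the other 11, with numbers from 32, at least 9404220. Neither the labels nor the methods say what the number stands for, and whether the sets of libraries match the 2 cohorts was not tested. Markers of neurons, astrocytes, oligodendrocytes and microglia were detected in every library, and the neuronal markers summed to between 32519 and 44656 normalized counts. They show brain tissue, and markers of regions next to the cortex were not examined. The median number of reads per library was below 20 for Ifit3, Mx1, Oas1a and Isg15, which limits how precisely these genes were measured in a single rat. All levels below are normalized counts, the reads divided by the size factor of the library, and they are compared between rats and not between genes, since gene lengths were not used.

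Of the transcription factors, Stat2 and Irf9 of the ISGF3 complex stood at even levels across the rats, and Irf7 did not. Stat2 had 194 to 634 reads per library, and its normalized count was 297 in the lowest rat, 382 at the median and 477 in the highest (376 ± 43.1, mean ± SD, n = 27). Irf9 had 82 to 244 reads and ran from 121 through a median of 154 to 202 (155 ± 22.0). Both genes thus spanned less than a doubling, with Stat2 highest in libraries 35, 32 and 6 and Irf9 highest in 35, 51 and 18. Irf7 had 28 to 125 reads and ran from 30.2 through a median of 65.7 to 108 (66.2 ± 20.9), a 3.58-fold range. The highest Irf7 levels were in libraries 19, 12 and 9 and the lowest in 34 and 39. The SD of Irf7 on the log2(normalized count + 1) scale was 0.47, larger than that of 90.7% of the 11730 genes with a mean of at least 10 reads, whereas Irf9 (0.20) and Stat2 (0.17) lay near the middle of all genes, above 53.1% and 40.1% of them.

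The effectors differed in the same manner, with wide ranges in the genes of few reads. Mx2, at 90 to 309 reads, ran from 108 through 183 to 265 normalized counts (179 ± 35.7), and it was highest in libraries 9, 31 and 5. Ifit2, at 26 to 93 reads, ran from 41.3 through 63.1 to 79.1 (60.3 ± 9.64). Its highest values, in libraries 20, 19 and 13, were less than double its lowest, in 51 and 6. The 4 other effectors covered a wider range. Ifit3, at 8 to 42 reads, ran from 7.88 through 18.4 to 38.1 (19.8 ± 7.65), with libraries 19 and 35 well above the rest. Mx1, at 10 to 42 reads, ran from 9.26 through 18.8 to 40.5 (20.9 ± 7.69), and libraries 24 and 9 stood highest. Oas1a, at 6 to 31 reads, ran from 5.87 through 14.7 to 27.9 (15.01 ± 5.66), highest in library 35. Isg15, at 3 to 34 reads, ran from 5.19 through 16.6 to 32.9 (17.4 ± 6.75), from library 6 to library 24. This 6.33-fold span rested on the 3 reads of library 6, the library of the lowest total, and was 4.21-fold without it. The SD of these 4 genes, 0.48 to 0.58 on the log2 scale, exceeded that of 91.5% to 95.1% of all genes, but genes of few reads carry more counting noise.

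**Figure D1:**
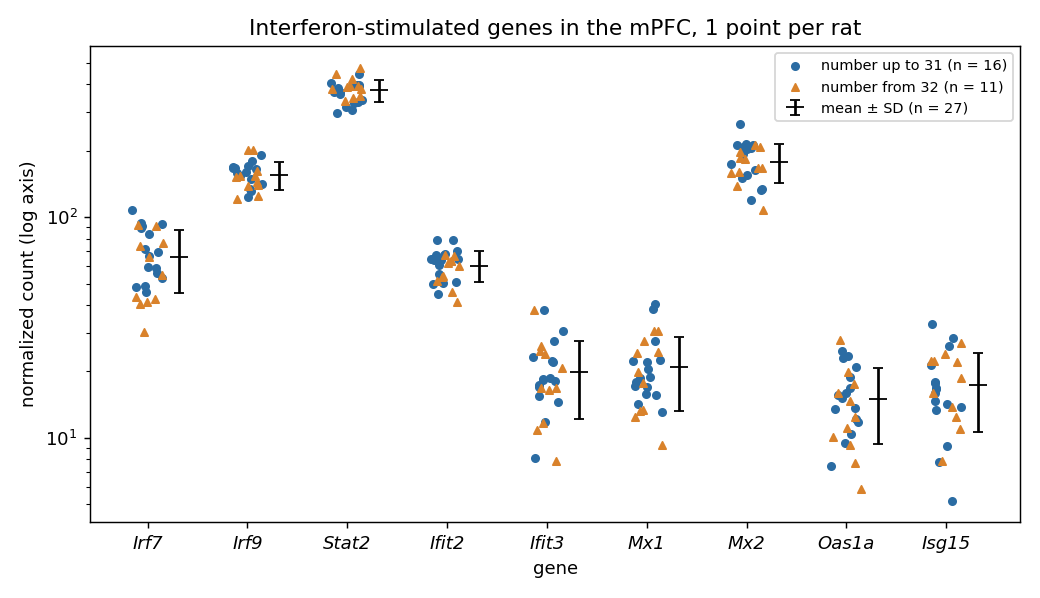
Normalized count (log axis) of each of the 9 interferon-stimulated genes in each of the 27 rats, blue circles for the 16 libraries numbered up to 31 and orange triangles for the 11 from 32, with the mean and SD over all rats as black bars. Irf7, Ifit3, Mx1, Oas1a and Isg15 spread widely while Stat2 and Irf9 stay within less than a doubling, and both sets of libraries overlap in every gene.

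The share of the variance between rats that counting alone gives separated these genes more plainly than the SD. It was 14.6% for Mx2, 15.7% for Irf7 and 20.7% for Stat2, so most of the spread of these genes was not counting noise. It was 33.2% to 38.7% for Irf9, Ifit3, Mx1 and Isg15, 48.7% for Oas1a and 66.8% for Ifit2. In a chi-square dispersion test against Poisson counts, with Benjamini-Hochberg adjustment over 11730 genes, 9 of the 9 genes varied beyond counting, but so did 89.8% of all genes tested, so the count is near the background. The variance of the counts was 7.03 times that expected from counting in Irf7 (dispersion test, adjusted p = 4.98e-25), 6.997 times in Mx2 (adjusted p = 7.28e-25) and 4.71 times in Stat2 (adjusted p = 4.19e-14). The call was weakest in Ifit2, at 1.52 times and an adjusted p of 0.0494 in the dispersion test. It was lost with TMM scaling (adjusted p = 0.0514), with scaling by total count (0.0537) and with every counted gene tested (0.0594). Within the 16 libraries up to 31, 7 of 9 genes passed (81.2% of all genes), Ifit2 and Oas1a being the exceptions, and within the 11 libraries from 32, 8 of 9 passed (72.8% of all genes), Ifit2 again being the exception. The biological coefficient of variation estimated by edgeR ran from 0.107 in Stat2 to 0.307 in Ifit3, beside a median of 0.118 over all genes.

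The 9 genes form 36 pairs, and most of them were positively correlated across the rats. Spearman's rho was positive in 33 of the 36 pairs, with a median of 0.306 and a range from -0.28 to 0.656. Over the 68790585 pairs of all genes tested, the median was -0.00488 and 49.3% were positive. A rho of at least 0.4 was reached by 13 of the 36 pairs, or 36.1%, and by 8.81% of all pairs of genes. In a two-sided permutation test over the rats, 15 of the 36 pairs had an unadjusted p under 0.05, and all 15 were positive. All 15 had a positive rho within both sets of libraries, but only 4 of them had a permutation p under 0.05 within the 16 libraries up to 31, 6 within the 11 from 32, and 1, Irf9 with Isg15, within both. The lowest rho among these 15 was 0.388, a value that 9.48% of all pairs of genes reached. By Pearson's r 14 pairs had such a p. Pairs share their genes and libraries, so the 36 values are not independent of each other.

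**Figure D2:**
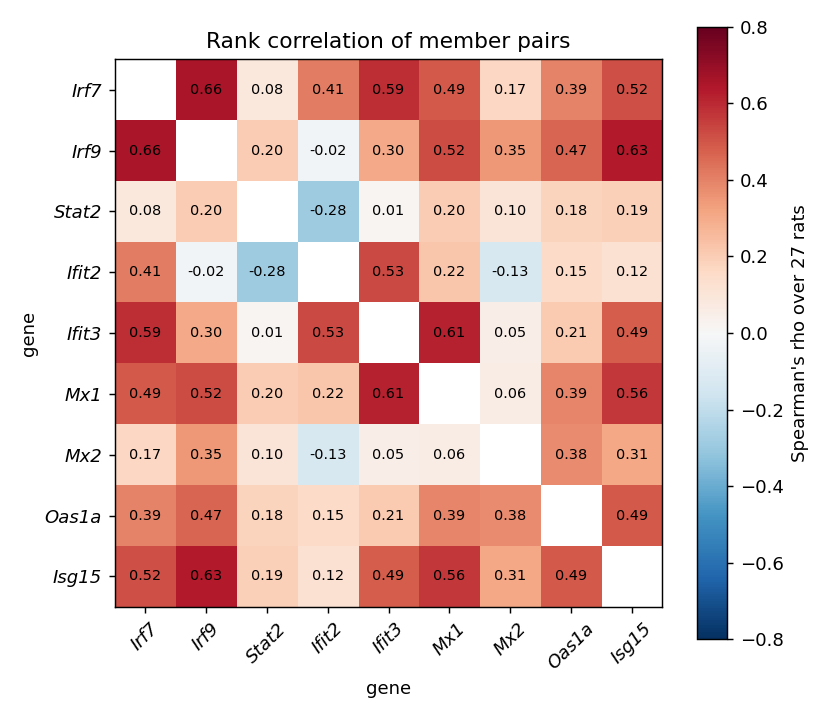
Spearman's rho of the log2 level over 27 rats for each pair of the 9 genes, with red for positive and blue for negative values and the value printed in each cell. The strongest pairs join Irf7, Irf9, Ifit3, Mx1 and Isg15, while the rows of Stat2, Ifit2 and Mx2 are mostly pale.

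The strongest pair was Irf7 and Irf9, the factor that is itself induced by interferon and the DNA-binding part of ISGF3, with rho = 0.656 (permutation p = 0.00035) over all 27 rats and r = 0.599 (permutation p = 0.00105). Without libraries 34 and 19, those farthest from the Irf7 median, r was 0.536, and rho was 0.494 within the libraries up to 31 and 0.827 within those from 32. Irf9 and Isg15 followed, with rho = 0.631 (permutation p = 0.00062), r = 0.604 (permutation p = 0.00076), r = 0.559 without libraries 35 and 51, and within-set rho of 0.518 and 0.782. Both pairs were positive in both sets of libraries, with the higher value in those from 32. Ifit3 and Mx1 had rho = 0.614 (permutation p = 0.00077) and r = 0.563 (permutation p = 0.00204, 0.507 without libraries 53 and 17), but rho was 0.282 in the libraries up to 31 and 0.809 in those from 32. Irf7 and Ifit3 had rho = 0.589 (permutation p = 0.00154), r = 0.611 (permutation p = 0.00077, 0.520 without libraries 34 and 19) and within-set rho of 0.500 and 0.700. Mx1 and Isg15 had rho = 0.565 (permutation p = 0.0024), r = 0.528 (permutation p = 0.00461, 0.392 without libraries 24 and 9) and within-set rho of 0.474 and 0.591. Ifit2 and Ifit3, related genes that lie close to each other in the genome, had rho = 0.529 (permutation p = 0.0047), r = 0.449 (permutation p = 0.0185, 0.500 without libraries 51 and 6) and within-set rho of 0.509 and 0.582. Reads of one Ifit gene that also match another could be counted on either, so this pair is less certain than the others.

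**Figure D3:**
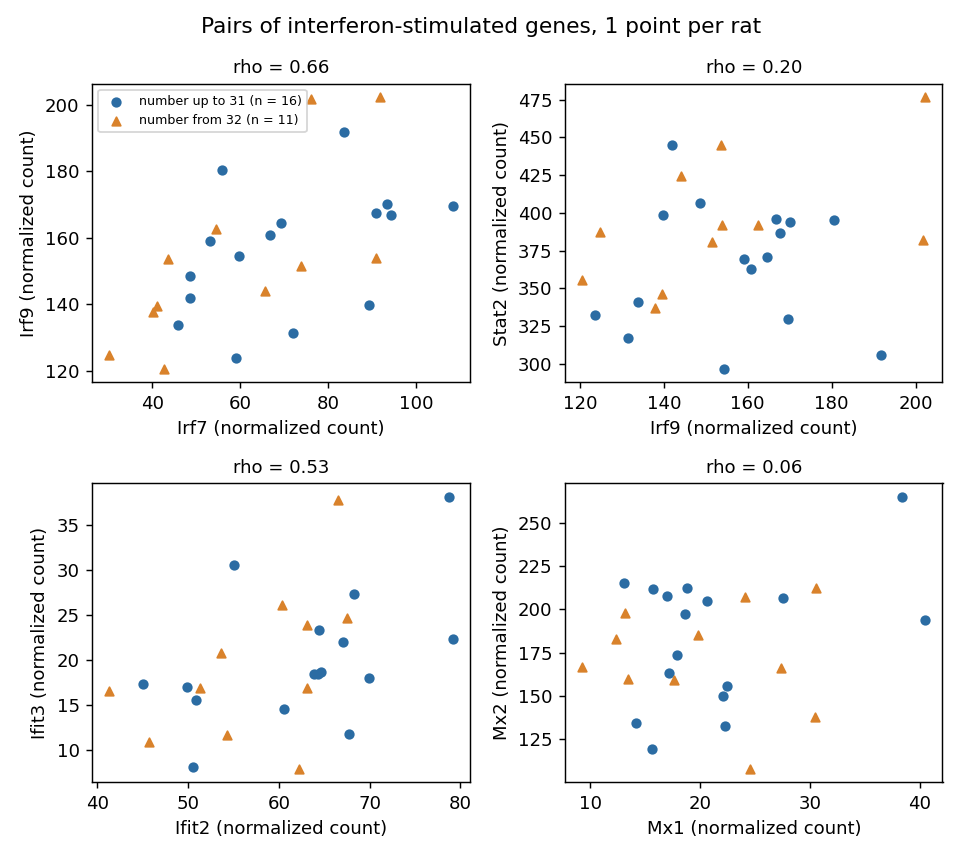
Normalized counts of 4 pairs of genes, 1 point per rat, blue circles for libraries numbered up to 31 and orange triangles for those from 32, with linear axes that do not start at 0. Irf7 with Irf9 (rho 0.66) and Ifit2 with Ifit3 (rho 0.53) rise together, while Irf9 with Stat2 (rho 0.20) and Mx1 with Mx2 (rho 0.06) show wide clouds.

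Partners in a complex and paralogs did not always have transcripts that moved together. Stat2 and Irf9, partners in ISGF3, had rho = 0.203 (permutation p = 0.311) and r = 0.224 (permutation p = 0.262, 0.051 without libraries 35 and 51), with rho of 0.012 within the libraries up to 31 and 0.609 within those from 32. The paralogs Mx1 and Mx2 had rho = 0.057 (permutation p = 0.776) and r = 0.143 (permutation p = 0.475, -0.08 without libraries 24 and 9), with within-set rho of 0.053 and -0.05. Stat2 and Ifit2 had the lowest value, rho = -0.28 (permutation p = 0.151) and r = -0.26 (permutation p = 0.192, -0.43 without libraries 3 and 35), which was -0.45 within the libraries up to 31 and 0.336 within those from 32. Taken by gene, the median rho with the other 8 was highest in Isg15 (0.487), Irf7 (0.450), Mx1 (0.440) and Irf9 (0.408), followed by Ifit3 (0.395) and Oas1a (0.382). It was 0.141 in Stat2, 0.137 in Ifit2 and 0.136 in Mx2. Within the libraries up to 31 and those from 32, this median was -0.09 and 0.559 in Stat2, 0.015 and 0.209 in Ifit2 and 0.072 and 0.118 in Mx2. The difference between the sets was not tested for any of these genes. Counting alone gave 66.8% of the variance between rats in Ifit2, against 20.7% in Stat2 and 14.6% in Mx2. The low median of Ifit2 can therefore not be read like those of Stat2 and Mx2. None of the 8 pairs of Stat2 and none of the 8 pairs of Mx2 had a permutation p under 0.05 by rho over all 27 rats, although Mx2 and Oas1a did by r (0.439, permutation p = 0.022). Within the libraries from 32, Stat2 and Isg15 had rho = 0.700 (permutation p = 0.0197), and without libraries 3 and 35, Stat2 and Ifit2 had rho = -0.42 (permutation p = 0.0408). The 3 pairs of factors had a median rho of 0.203, the 15 pairs of effectors 0.309 and the 18 pairs of a factor with an effector 0.326.

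The size of these relations was not the same in both sets of libraries. The median rho of the 36 pairs was 0.260 within the 16 libraries up to 31 and 0.505 within the 11 from 32, and 24 of the 36 pairs were positive in both sets. With the set regressed out of the ranks the median was 0.312. The difference between the sets was not tested. Pearson's r was positive with and without the 2 farthest libraries in 30 of the 36 pairs.

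The same relations were examined in a model across all genes, in which the level of 1 interferon-stimulated gene was the covariate and every other gene was tested with edgeR's quasi-likelihood test. The 9 genes give 72 ordered pairs, which are the 36 pairs in both directions, so the fits of a pair are not separate results. Of the 72 ordered pairs, 0 passed an adjusted p of 0.05. The lowest was Isg15 on Mx1 (edgeR, log2 change 0.32 ± 0.09 SE per SD of Mx1, adjusted p = 0.126), and DESeq2's Wald test also called 0, with a lowest adjusted p of 0.0541. At an unadjusted p under 0.05, edgeR gave 32 of the 72, all 32 positive, against 5.3% of all genes with a positive change in the 9 fits. The smallest unadjusted p was that of Irf7 on Ifit3, where Irf7 was higher by 0.29 ± 0.07 (log2 per SD of Ifit3, SE) at p = 0.00032 and an adjusted p of 0.245. No single relation among the 9 thus passed once the 11920 to 12026 genes of each fit were taken into account.

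Across the whole table, the number of genes that followed each of the 9 was 0 or 1 in edgeR, except for Stat2. The edgeR fits called 0 genes at an adjusted p of 0.05 for Irf7, Irf9, Ifit2, Ifit3, Mx2, Oas1a and Isg15. The share of all genes with an unadjusted edgeR p under 0.05, in either direction, was 4.81% for Irf7, 8.35% for Irf9, 4.4% for Ifit2, 11.7% for Ifit3, 4.17% for Mx2, 6.47% for Oas1a and 13.5% for Isg15. DESeq2's Wald test called 3 genes for Irf7, 1 each for Ifit3, Oas1a and Isg15, and 0 for Irf9, Ifit2 and Mx2. For Mx1 a single gene was called, the collagen receptor Mrc2, which was higher by 0.37 ± 0.06 (log2 per SD of Mx1, SE, edgeR adjusted p = 0.0339), 0.00836% of the genes tested, and 9.6% had an unadjusted p under 0.05. This call was lost with the endothelial or the meningeal marker score in the fit and without the 2 libraries farthest from the Mx1 median, whereas without library 35 edgeR called 27 genes and DESeq2's Wald test on all libraries called 72. For Stat2, 251 genes (2.1%) were called, 180 higher and 71 lower, with 24.2% at an unadjusted p under 0.05, and none was another interferon-stimulated gene of the 9. The 251 calls fell to 0 with the set of libraries in the fit, to 0 without library 35, and to 0 without the 2 libraries farthest from the Stat2 median, and they numbered 521 with the microglial score in the fit and 845 in DESeq2's Wald test.

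Individual rats were high or low in many of these genes at the same time. Library 35 was among the 5 highest in 8 of the 9 genes, and above the median in 9 of 9. Over all genes tested it was among the 5 highest in 21.3% and above the median in 47.9%. It held 91.7 normalized counts of Irf7, 202 of Irf9, 477 of Stat2, 37.8 of Ifit3, 27.9 of Oas1a and 27.0 of Isg15. Library 9 was also above the median in 9 of 9 and among the 5 highest in 6, with the highest Mx2 of all, and library 24 was above the median in 9 of 9 and among the 5 highest in 4. Over all genes tested, libraries 9 and 24 were among the 5 highest in 21.5% and 20.1% and above the median in 48.3% and 48.1%. At the other end, libraries 39 and 53 were above the median in 0 of 9, against 47.93% and 46.97% of all genes tested. Library 53 had the lowest Irf9 and Ifit3 levels, 121 and 7.88 normalized counts. Without library 35 the median rho of the pairs was 0.247 instead of 0.306, and 26 of the 72 ordered pairs had an unadjusted edgeR p under 0.05, all of them positive. Without library 53 the values were 0.246 and 29.

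**Figure D4:**
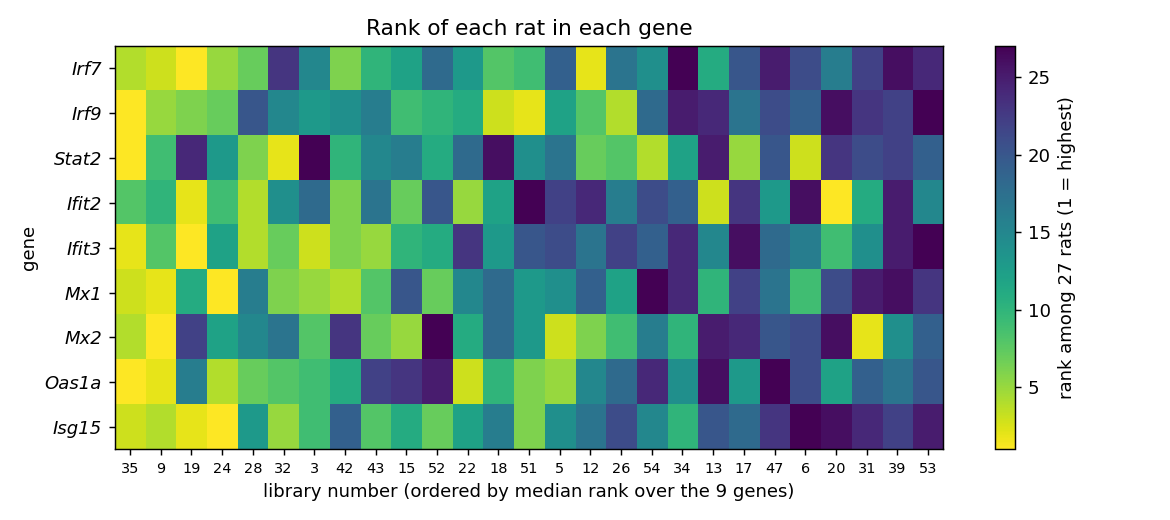
Rank of each of the 27 rats (1 = highest, yellow, to 27 = lowest, dark) in each of the 9 genes, with the libraries ordered by their median rank. Library 35 at the left is near the top in nearly every row and libraries 39 and 53 at the right near the bottom, while Stat2, Ifit2 and Mx2 follow this order loosely.

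No difference in level between the sets of libraries passed the test. With the 11 libraries from 32 set against the 16 up to 31 in edgeR, 18% of all genes were called at an adjusted p of 0.05, but 0 of the 9 interferon-stimulated genes, and 0 had an unadjusted p under 0.05 in edgeR or in DESeq2's Wald test. The largest difference was in Irf7, at 71.1 ± 19.7 normalized counts in the libraries up to 31 (n = 16) and 59.1 ± 21.6 in those from 32 (n = 11), which was -0.27 ± 0.17 on the log2 scale (SE, edgeR adjusted p = 0.28). Stat2 was at 365 ± 41.4 and 393 ± 42.1 (0.10 ± 0.06 on the log2 scale, SE, edgeR adjusted p = 0.242).

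Whole tissue was sequenced, so fewer cells of a type and less RNA per cell cannot be told apart, and the markers of the cell types of cortex are given here for this reason. Microglial markers (9 of 9 detected at a mean of at least 10 reads) summed to between 2075 and 3356 normalized counts per library, endothelial markers (7 of 7) to between 2078 and 3865, and markers of meningeal fibroblasts (6 of 6) to between 136 and 2268. T cell markers summed to 32.1 to 89.8, with 1 of 5, Cd4, at a mean of at least 10 reads. Cd4 was at 54.4 ± 14.9 (SD), whereas Cd3e, Cd3d, Cd3g and Cd8a had means of 0.409 to 3.37 normalized counts. The sum was thus mostly Cd4. S100a8 and S100a9 of neutrophils and monocytes summed to at most 14.97. The rho of the 9 genes with the mean marker score over the 27 rats had a median of 0.292 for meningeal fibroblasts, 0.259 for mural cells, 0.244 for astrocytes, 0.233 for perivascular macrophages, 0.151 for microglia, 0.131 for endothelium, 0.085 for red blood cells, -0.08 for oligodendrocytes and -0.27 for neurons. These values were not the same in both sets of libraries, and the differences were not tested. The median rho within the libraries up to 31 and within those from 32 was 0.253 and 0.418 for meningeal fibroblasts, 0.018 and 0.436 for mural cells, -0.11 and 0.264 for astrocytes, 0.144 and 0.082 for perivascular macrophages, 0.124 and 0.255 for microglia, -0.04 and 0.464 for endothelium, 0.159 and 0.145 for red blood cells, 0.135 and -0.32 for oligodendrocytes, and -0.20 and -0.31 for neurons. Over all 27 rats, Mx1 had the highest rho of the 9 genes with meningeal fibroblasts (0.457, or 0.253 and 0.791 within the sets), astrocytes (0.437, or 0.474 and 0.418), mural cells (0.407, or 0.082 and 0.745), microglia (0.397, or 0.544 and 0.364) and endothelium (0.395, or 0.268 and 0.645). This order did not hold within the sets, since other genes lay above Mx1 for meningeal fibroblasts, astrocytes and mural cells in the libraries up to 31 and for astrocytes, microglia, mural cells and endothelium in those from 32. With the perivascular macrophage score, Ifit3 (0.288) and Ifit2 (0.272) lay above Mx1 (0.264). Mx2 had a rho of -0.41 with meningeal fibroblasts (-0.45 and -0.37 within the sets), and Irf9 one of -0.47 with neurons (-0.20 and -0.50). The median rho of the 9 genes was 0.242 with Rn18s, the ribosomal RNA left in a library (0.241 and 0.009 within the sets), and -0.17 with the total count (0.006 and -0.22), with the largest of either in Irf7, at 0.358 and -0.31. Their part in the relations among the 9 genes was not tested, apart from fits with 3 of the scores. With the microglial, endothelial or meningeal score in the edgeR fits, 29, 28 and 29 of the 72 ordered pairs had an unadjusted p under 0.05, all of them positive, beside 32 without a score.

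Of the 27 genes whose levels were most like those of the 9 across the rats, 3 were on the interferon pathway list described below, Dtx3l, Tap1 and Uba7. That list held 67 of the 11721 tested genes outside the 9. For Irf7, the 3 genes with the highest rho among 11729 were RT1-A1 (0.763), RT1-T24-4 (0.714) and the gene with ID 360231 (0.744). RT1-A1 and RT1-T24-4 are class I histocompatibility genes, and ID 360231 has no symbol. Closely related RT1 genes may share reads. For Irf9 they were Dtx3l, a ubiquitin ligase (0.747), Gsdmd, the pore-forming gasdermin D (0.680), and Pkn3 (0.677). For Isg15 they were Apol9a (0.750), Gstt2 (0.734) and Sdsl (0.710), and for Oas1a Aass (0.694), RT1-A2 (0.665) and Xrcc5 (0.658). Ifit3 was most like Adamtsl5 (0.753), LOC100910973 (0.707) and Uba7, the enzyme that activates Isg15 for conjugation (0.694). Mx1 was most like Npr1 (0.733), Tap1, a peptide transporter of antigen presentation (0.730), and Lrp10 (0.722). Stat2 was most like Agbl5 (0.701), Dhx30 (0.697) and Vps39 (0.695). Mx2 was most like genes that include Znrd2 (0.688) and Eepd1 (0.664), and Ifit2 was most like Dynlrb2 (0.637), Lcp2 (0.608) and Cyren (0.604). The rho of these genes ran from 0.374 to 0.847 in the libraries up to 31 and from 0.300 to 0.873 in those from 32, in the same rats by which the genes were selected. Among the 27, 21 had a RefSeq promoter and 4 of these (19.05%), LOC100910973, Apol9a, Dtx3l and Tap1, held the core of the response element, against 3.92% of all promoters.

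The nearest partner within the 9 was close to the top of the table for some genes and far from it for others. Only 5 genes had a higher rho with Irf7 than Irf9 had, and 7 had a higher rho with Irf9 than Irf7 had. The number was 12 for Ifit3 (nearest Mx1), 13 for Isg15 (nearest Irf9), 16 for Ifit2 (nearest Ifit3), 29 for Mx1 (nearest Ifit3) and 100 for Oas1a (nearest Isg15). For Mx2 (nearest Oas1a) it was 265, and for Stat2 (nearest Mx1, rho 0.203) it was 2828.

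The wider interferon pathway was examined with a list of 105 genes, of which 97 were in the table, 67 had a mean of at least 10 reads and 15 were listed at 0 in every library. Ifnar2, a subunit of the type I receptor, was among the 15, and a gene listed at 0 in this table is given as such and no more. The ligands were at the limit of detection, with at most 1 read of Ifnb1, Ifng or Ifnk and at most 2 of Ifna4 in any library. Of the receptor and its kinases, Ifnar1 was at 793 ± 59.5, Jak1 at 2062 ± 173 and Tyk2 at 297 ± 45.1 normalized counts (SD, n = 27), and the 6 tested genes of this class had a median rho of -0.14 with the 9 genes. The 9 tested genes of antigen presentation had a median rho of 0.226 and the 34 tested antiviral effectors one of 0.285. Over the 67 genes, the median rho with the 9 was positive in 58, with a median of 0.220. Of the 11721 genes outside the 9, it was positive in 49.8%, with a median of -0.00061.

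In the edgeR fits, 0 of the pathway genes passed an adjusted p of 0.05 with any of the 9 genes as covariate. At an unadjusted p under 0.05, the pathway genes that were higher with the covariate numbered 26 of 69 for Ifit3 (7.28% of all genes), 20 of 69 for Mx1 (6.62%), 20 of 70 for Isg15 (6.07%), 19 of 69 for Irf7 (3.24%), 15 of 69 for Oas1a (3.68%) and 14 of 69 for Irf9 (4.4%). They numbered 6 of 69 for Stat2 (12.1%), with 5 lower, 3 of 69 for Mx2 (2.32%) and 2 of 69 for Ifit2 (1.95%). The genes with a positive change in the most fits, chosen after their values were seen, were Rtp4, a chaperone of receptor transport (7 of 9 fits, 28.5 ± 9.22 normalized counts, SD, n = 27), the tethering factor Bst2 (6 fits, 64.95 ± 14.05), the ADP-ribosyltransferase Parp14 (6 fits, 48.3 ± 10.5), B2m, the light chain of class I molecules (6 fits, 2359 ± 343), and the antiviral enzyme Rsad2, also named viperin (6 fits, 31.2 ± 10.5). Of the 55 tested pathway genes with a RefSeq promoter, 28 (50.9%) held the core of the response element, a count over a list whose genes are known for this pathway.

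Ifit1, a relative of Ifit2 and Ifit3 that was named after its values were seen, had very few reads in some libraries. It had 1 read in each of libraries 3, 32, 34, 35 and 51 and 3 reads in library 31, and between 9 and 56 reads in the other 21. Library 35, which was among the highest in Ifit3 (37.8 normalized counts) and had 66.5 of Ifit2, was therefore among those with 1 read of Ifit1. Over all rats, rho with Ifit1 was 0.405 for Ifit2, 0.399 for Irf7, 0.058 for Ifit3 and -0.33 for Stat2. Whether reads were shared among the Ifit genes was not tested.

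**Figure D5:**
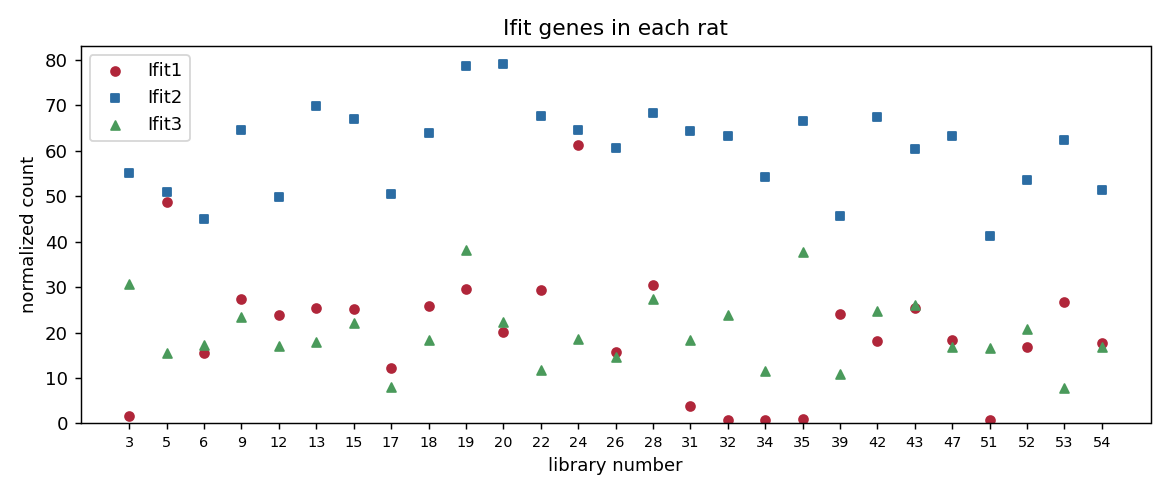
Normalized count of Ifit1 (red circles), Ifit2 (blue squares) and Ifit3 (green triangles) in each of the 27 rats, by library number. Ifit1 lies near 0 in libraries 3, 31, 32, 34, 35 and 51, in which Ifit2 stays between 41.3 and 66.5 and Ifit3 is at 11.6 or more.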

How the data were processed

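RNASeq of mPFC tissue from 27 male Wistar rats yielded 27 libraries. Deposited by the authors were raw counts, the reads assigned to each NCBI gene ID in each library, without normalization. The submitters' processing notes name Trimmomatic, STAR and HTSeq. The genome build, annotation and strandedness are not given in the sources used here, so counts of close paralogs, overlapping genes and antisense genes are uncertain. The labels and the methods of the study name different library kits and section positions. All 27 columns were used, 0 rows lacked a gene, and gene IDs were named from RefSeq (GRCr8, 28157 of 36865 rows).

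Levels are counts divided by median-of-ratios size factors (DESeq2 1.42.0), and the log2 scale carries a pseudocount of 1, so that changes of low genes come out too small. Genes with a mean of at least 10 reads were tested for spread beyond counting with a chi-square dispersion test. It assumes independent reads, and it covers counting error only, since there were no molecular identifiers. Spearman's rho and Pearson's r were given two-sided permutation tests (100000 permutations, unadjusted, 36 pairs). Each of the 9 genes was a standardized covariate in edgeR 4.0.16 (quasi-likelihood test, filterByExpr, TMM), with Benjamini-Hochberg adjustment over all genes. In simulated counts for the Irf7 fit over 11730 genes, edgeR recovered 84 of 100 genes changed by 0.25 and 98 of 100 changed by 0.5 (log2 per SD), with 15 false calls, and the dispersion test recovered 195 of 200 genes with 15 false calls. The genes changed in the Irf7 simulation were drawn from all 11730, whose median biological coefficient of variation was 0.118. It was 0.280 to 0.307 in Irf7, Ifit3, Mx1, Oas1a and Isg15. The simulated recovery therefore does not say how often a relation among the 9 genes would be called. Marker scores are mean z scores. Promoters were searched on both strands.

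The 9 genes and all lists were chosen with earlier results of these data known. Beside the 9 genes, the text names the 3 genes most like each of them by rho and the markers of lists that moved with them. Some items that this rule or the pathway list would name are not reported here. No pathway gene met the rule of passing in the fits, so Rtp4, Bst2, Parp14, B2m, Rsad2, the ligands, the receptors, the kinases, Ifit1, Socs1, Socs3 and Psme1 were named after their values were seen. Other scalings, filters, pseudocounts, covariates, DESeq2's Wald test and sets of libraries were tried as alternatives. Analyses ran in Python 3.11.15 (scipy 1.17.1, numpy 2.4.6, pandas 2.3.3, matplotlib 3.10.9) and R 4.3.3 (limma 3.58.1).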

Additional observations from a re-analysis of the deposited data

How the results depend on the processing

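The count of 9 genes that varied beyond counting, the count of 0 ordered pairs at an adjusted p under 0.05 and the sign of the median rho of the 36 pairs were the same under every alternative run, within the 1.5-fold margin used for counts, with the lost calls of Ifit2 and Oas1a given in the report. The number of genes called across the table changed more. For Stat2 it was 251 in edgeR, between 0 and 521 under the other edgeR settings and 845 in DESeq2's Wald test, and for Mx1 it was 1, between 0 and 27, and 72. For Ifit2, Ifit3 and Oas1a it was 0, and at most 1 under the other edgeR settings. Leaving out library 35 or library 53 was chosen after seeing the data. Single pairs were less stable. Of the 15 pairs with a permutation p under 0.05, 11 no longer had one within the libraries up to 31 alone and 9 within those from 32 alone, which hold fewer rats. Between 0 and 3 lost it under each other alternative, and several of the other pairs changed sign. Pairs that gained a permutation p under 0.05 were, within the libraries from 32, Irf9 and Ifit3 (0.709), Stat2 and Isg15 (0.700) and Ifit2 and Mx1 (0.645), without the 2 farthest libraries Stat2 and Ifit2 (-0.415), and by Pearson's r, with either pseudocount, Mx2 and Oas1a (0.439 and 0.438). In the libraries up to 31 alone, rho was -0.13 for Irf7 and Stat2, -0.01 for Irf7 and Mx2 (-0.00588), -0.39 for Stat2 and Ifit3, -0.06 (-0.0559) for Stat2 and Mx1, -0.20 for Stat2 and Isg15, -0.01 for Ifit2 and Mx1 (-0.0118) and -0.00294 for Ifit3 and Mx2. In the libraries from 32 alone it was 0.127 for Irf9 and Ifit2, 0.336 for Stat2 and Ifit2, -0.03 for Ifit2 and Isg15 (-0.0273) and -0.05 for Mx1 and Mx2 (-0.0545). Without library 35 it was -0.000342 for Irf7 and Stat2, -0.0892 for Stat2 and Ifit3, -0.0209 for Ifit3 and Mx2 and -0.0263 for Mx1 and Mx2, and without library 53 it was -0.0243 for Stat2 and Ifit3. Without the 2 libraries farthest from the median of the first gene it was 0.0431 for Irf9 and Ifit2, -0.0723 for Ifit3 and Mx2 and -0.0838 for Mx1 and Mx2, and with scaling by total count it was 0.0354 for Irf9 and Ifit2. The cause was not tested. None of the pairs that changed sign had a permutation p under 0.05 in the alternative. No paired analysis was possible because all libraries belong to 1 group. The few reads of Oas1a, Isg15, Mx1 and Ifit3 limit what a single rat can show, and tests within 16 or 11 libraries have less power than those over 27.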

Other observations

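The inhibitors of interferon signalling had wider spreads than the 9 genes. Socs1 ran from 14.1 to 132 normalized counts over the 27 rats (42.96 ± 28.4, SD) and Socs3 from 14.97 to 179 (56.8 ± 38.1), with an SD of 0.89 and 0.91 on the log2(normalized count + 1) scale. Their median rho with the 9 interferon-stimulated genes was 0.226 and 0.238. Psme1, a regulator of the proteasome in antigen presentation, ran from 310.5 to 836 (499 ± 190), with a median rho of 0.187. Genes of ISG15 conjugation were detected at low levels, with Uba7, the activating enzyme, at 27.9 ± 7.42, and 2 of the 4 genes of this class in the table were listed at 0 in every library.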
